A study of Mus musculus with 45 samples.

Results

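The 9 nonsense-mediated decay factors Upf1, Upf2, Upf3a, Upf3b, Smg1, Smg5, Smg6, Smg8 and Smg9 were followed through cortical development, as named genes out of the 53491 genes listed in the 9 tables of the series. They were chosen by name, and all 9 were measured in each of the 45 libraries. The cells were wild-type mouse primary cortical cells taken at embryonic day E11.5, E14.5 or E16.5 and grown in a progenitor medium. Each of the 3 biological replicates of a stage, A, B and C, combined the cortices of 7 embryos (E11.5) or of 2 embryos (E14.5 and E16.5). By SLAM-seq, the RNA of all cells was marked with 100 uM 4-thiouridine (4sU) for 20 h ahead of a chase in 5 mM uridine of 0, 2, 4, 8 or 12 h, so that the 45 libraries formed 15 groups of 3. Incorporated 4sU is read as a T-to-C conversion, and the conversion rate is the share of sequenced T positions of a gene that were read as C. The loss of this rate during the chase gives the half-life of the mRNA where its total level holds. No group carried a genetic change, and no library was left unlabeled.

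Nonsense-mediated decay (NMD) is the pathway that degrades mRNAs on which the ribosome stops early, far from the end of the message or ahead of an exon junction. UPF1, an RNA helicase, is bound at the stalled terminating ribosome and is joined by UPF2 and by UPF3A or UPF3B, which link it to the exon junction complex. The kinase SMG1, held in a complex with SMG8 and SMG9, phosphorylates UPF1, and the phosphorylated helicase recruits the endonuclease SMG6 and the adaptor SMG5, which brings in further decay enzymes. Because the mRNAs of several of these factors are themselves known targets of the pathway, its activity feeds back on its own components. Upf1, Upf2, Upf3b, Smg1, Smg5 and Smg6 were therefore treated as the 6 feedback members and Upf3a, Smg8 and Smg9 as the 3 other members. A narrower choice took only Upf1, Smg1 and Smg5 as feedback members.

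The promoters of 4 members are shown because these genes form the opposing pairs of the expression results, Upf1 and Smg5 on one side and Smg1 and Smg6 on the other. The sequences are from RefSeq (GRCm38.p6), in which all 9 members were matched, and run from 250 to 36 bases ahead of the annotated start. The windows lie at chr8:70353315-70353529 (minus strand) for Upf1, chr3:88336010-88336224 (plus strand) for Smg5, chr7:118243673-118243887 (minus strand) for Smg1 and chr11:74925604-74925818 (plus strand) for Smg6. Capitals mark matches, on either strand, to any of the motifs listed next.
Upf1: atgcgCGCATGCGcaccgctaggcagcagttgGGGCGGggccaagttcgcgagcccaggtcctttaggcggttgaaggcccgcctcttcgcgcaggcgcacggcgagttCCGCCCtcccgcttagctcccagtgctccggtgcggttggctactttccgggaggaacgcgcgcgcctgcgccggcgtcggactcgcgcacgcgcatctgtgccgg
Smg5: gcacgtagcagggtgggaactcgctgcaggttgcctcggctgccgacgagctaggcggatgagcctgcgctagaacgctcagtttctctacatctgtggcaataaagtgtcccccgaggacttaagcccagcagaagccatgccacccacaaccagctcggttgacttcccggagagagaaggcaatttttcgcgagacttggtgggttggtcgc
Smg1: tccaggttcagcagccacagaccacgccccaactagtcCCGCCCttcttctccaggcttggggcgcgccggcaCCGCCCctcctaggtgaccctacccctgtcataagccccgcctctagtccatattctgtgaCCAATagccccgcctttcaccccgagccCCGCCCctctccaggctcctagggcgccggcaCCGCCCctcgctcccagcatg
Smg6: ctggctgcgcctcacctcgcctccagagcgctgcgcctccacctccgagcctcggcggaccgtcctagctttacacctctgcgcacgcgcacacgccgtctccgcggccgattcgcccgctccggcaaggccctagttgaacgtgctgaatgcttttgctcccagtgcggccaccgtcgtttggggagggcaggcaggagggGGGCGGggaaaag
Searched on both strands were the core CGCATGCG of the site of NRF1, a factor of many housekeeping promoters, and CCGGAAG, the site of the ETS family. The YY1 factor was represented by AAGATGG, and the cyclic AMP response element (CRE) by its full palindrome TGACGTCA. The E-box of basic helix-loop-helix factors was searched as CACGTG, the binding site of NF-Y as CCAAT, and the GC-box of the SP family of zinc-finger factors as GGGCGG. The Upf1 window held 1 NRF1 match, a motif present in 1.10% of 32817 promoter windows of the same length, and 2 GC-boxes. The Smg5 window held no match to any of the 7 motifs. The Smg1 window held 4 GC-boxes and 1 CCAAT, and the Smg6 window held 1 GC-box. GC-boxes were found in 27.7% and CCAAT in 30.4% of all promoter windows. A match is a run of letters and was not tested as a binding site.

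The 45 libraries held between 15938793 and 43893597 reads. The lowest count of a member in any library was 3665 covered T positions, and the lowest number of converted T positions was 50 at 0 h and 9 during the chase. The cell populations differed between stages at 0 h. The summed level of 8 progenitor markers, such as Pax6 and Vim, was 9671 to 10201 CPM (reads scaled to the library total) at E11.5, 3504 to 4070 at E14.5 and 1343 to 1469 at E16.5. The sum of 8 neuron markers, such as Neurod6 and Tubb3, ran from 2893 to 3450, from 5714 to 6369 and from 8131 to 8574 CPM. Beside these, 6 mesenchymal and mural markers summed to 463 to 701 CPM at E11.5 and to at most 27.4 CPM later, and 6 erythroid markers to 1633 to 3658 CPM at E11.5 and to at most 61.7 CPM later. Sums of 6 interneuron markers were 39.5 to 45.2, 50.6 to 54.4 and 268 to 277 CPM, and 5 endothelial and 5 microglia markers stayed at or below 5.75 and 13.2 CPM. No marker was at 0 in all libraries of a stage. The part of these shifts in the member results was not tested, and in bulk RNA fewer cells of a type and less RNA per cell cannot be told apart.

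Expression of the factors did not move together over the 3 stages. Smg6 more than doubled from E11.5 to E14.5 and Smg1 rose with it, whereas Upf1 and Smg5 fell from E11.5 to E14.5 and then rose again. Of the 9 members, 4 changed between E11.5 and E14.5, with 2 higher and 2 lower, by edgeR's quasi-likelihood test with Benjamini-Hochberg adjustment over 18408 genes. In the same comparison 25.1% of all genes were called higher and 23.5% lower. Between E14.5 and E16.5, 2 members rose and none fell, while 24.1% of genes were higher and 25.4% lower. Between E11.5 and E16.5, 3 members rose and 1 fell, while 31.4% of genes were higher and 33.1% lower. In this main fit all of these calls were among the 6 feedback members. Smg9, one of the other members, missed narrowly between E14.5 and E16.5 (edgeR adjusted p = 0.0558) and was called in several alternatives. The split between the 2 kinds of member was not tested. Changes in this many genes were frequent, and the members' median log2 differences of -0.04, 0.13 and 0.00 lay beside medians of -0.01, 0.00 and -0.04 over all genes.

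**Figure D1:**
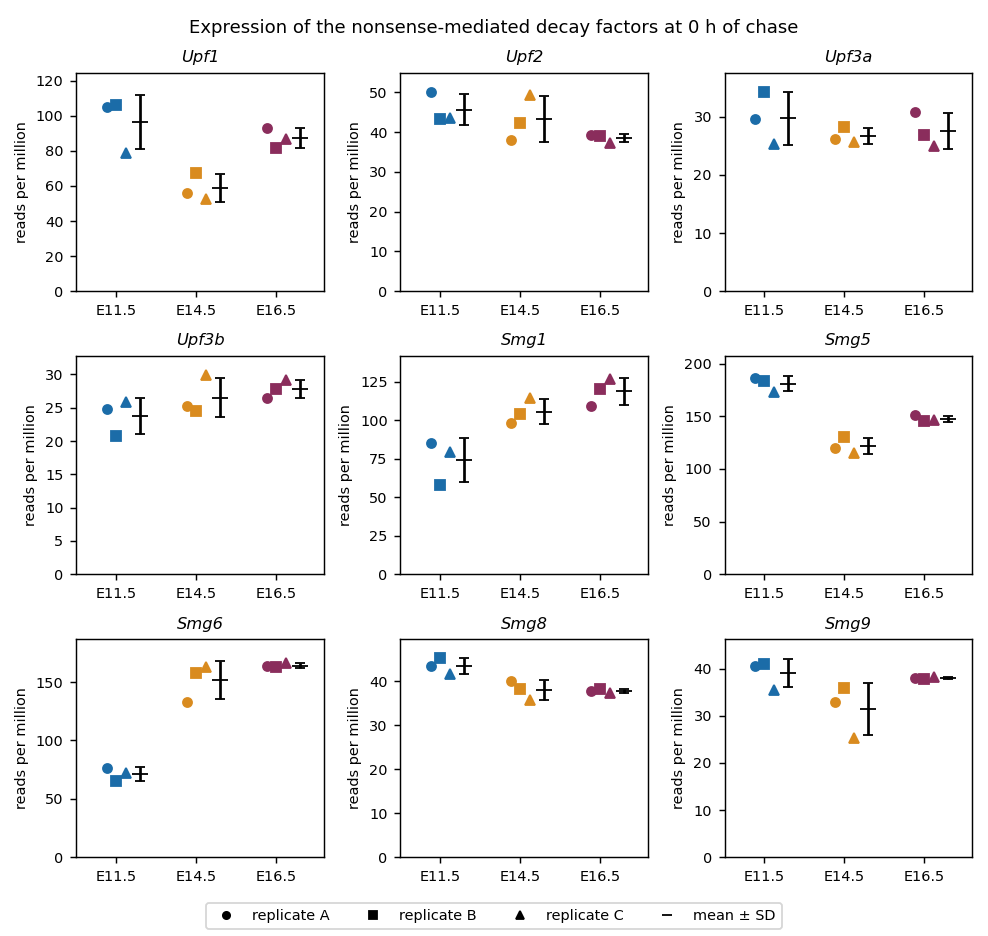
Expression of the 9 factors at 0 h of chase, in CPM (vertical axis from 0, own range per gene) against stage. Symbols are the 3 replicates and the bars mean and SD; Smg6 lies at 64.9 to 76.2 at E11.5 and at 133 or above later, while Upf1 and Smg5 are lowest at E14.5.

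Upf1 (ENSMUSG00000058301, chr8:70331525-70353278, minus strand), the helicase at the center of the pathway, dipped at the middle stage. It measured 105, 106 and 78.7 CPM in replicates A, B and C of E11.5, 56.1, 67.5 and 52.5 CPM at E14.5, and 93.0, 81.7 and 86.7 CPM at E16.5. Every library of E14.5 was below every library of the other stages. The log2 change was -0.68 (SE 0.123, edgeR adjusted p = 0.000495) at the first step and 0.59 (SE 0.123, edgeR adjusted p = 0.0016) at the second. Between the outer stages the log2 difference of -0.10 did not pass (edgeR adjusted p = 0.503). Its adaptor Upf2 (ENSMUSG00000043241, chr2:5951469-6056703, plus strand) was measured at 43.3 to 50.1, 38.0 to 49.4 and 37.4 to 39.2 CPM, and none of its 3 comparisons passed.

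The paralogs Upf3a (ENSMUSG00000038398, chr8:13785615-13799193, plus strand) and Upf3b (ENSMUSG00000036572, chrX:37091678-37110322, minus strand), which tie UPF2 to the exon junction complex, had the lowest read levels of the members (all positions in GRCm38). Upf3a was at 25.2 to 34.2, 25.6 to 28.2 and 24.9 to 30.9 CPM in the 3 stages, with overlapping ranges. Upf3b was at 24.8, 20.7 and 25.8 CPM at E11.5, 25.3, 24.5 and 29.8 CPM at E14.5, and 26.4, 27.8 and 29.2 CPM at E16.5. The ranges of neighbouring stages overlapped, and those of E11.5 and E16.5 did not. Upf3b was higher at E16.5 than at E11.5 by 0.32 on the log2 scale (SE 0.0985, edgeR adjusted p = 0.0113). Neither step between successive stages passed for Upf3b.

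Smg1 (ENSMUSG00000030655, chr7:118131308-118243670, minus strand), the kinase that phosphorylates UPF1, was lowest at E11.5. Its 3 libraries there held 84.9, 58.0 and 79.5 CPM, against 98, 104 and 114 CPM at E14.5 and 109, 120 and 127 CPM at E16.5. The log2 increase was 0.55 (SE 0.116, edgeR adjusted p = 0.00168) to E14.5 and 0.74 (SE 0.117, edgeR adjusted p = 9.49e-05) to E16.5. The partners of SMG1 did not follow it. Smg8 (ENSMUSG00000020495, chr11:87077732-87086774, minus strand) was at 41.6 to 45.3, 35.6 to 40.1 and 37.4 to 38.2 CPM, and none of its comparisons passed. Smg9 (ENSMUSG00000002210, chr7:24399619-24422778, plus strand) was at 40.4, 40.9 and 35.5 CPM, then 33, 35.9 and 25.2 CPM, then 38.0, 37.8 and 38.3 CPM. Its E14.5 values were spread widely, and its log2 difference of 0.27 between E14.5 and E16.5 missed the threshold (edgeR adjusted p = 0.0558). DESeq2 called the same difference (adjusted p = 0.0205), and it was also called without E14.5 replicate B (edgeR adjusted p = 0.0182). It was called too with another scaling of library size, RLE (edgeR adjusted p = 0.037), and with recovered reads (edgeR adjusted p = 0.0264).

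The decay effectors Smg5 and Smg6 moved in opposite directions after E11.5. Smg5 (ENSMUSG00000001415, chr3:88336260-88362338, plus strand), the adaptor, was at 186, 184 and 173 CPM at E11.5, 120, 130 and 115 CPM at E14.5, and 151, 145 and 146 CPM at E16.5. The 3 stages did not overlap, and the middle one was lowest. Its log2 change was -0.52 (SE 0.0647, edgeR adjusted p = 2.12e-05) and then 0.31 (SE 0.0645, edgeR adjusted p = 0.00148), which left it 0.21 below its first level (log2 difference -0.21, SE 0.0645, edgeR adjusted p = 0.0107). Smg6 (ENSMUSG00000038290, chr11:74925823-75164448, plus strand), the endonuclease, was at 76.2, 64.9 and 72.6 CPM at E11.5, 133, 158 and 163 CPM at E14.5, and 164, 163 and 166 CPM at E16.5. No E11.5 library came near the later ones. The increase of 2.20-fold to E14.5 (log2 1.14, SE 0.082, edgeR adjusted p = 1.61e-07) and of 2.41-fold to E16.5 (log2 1.27, SE 0.0822, edgeR adjusted p = 2.13e-08) were the only member changes beyond 2-fold. Increases of this size were called in 8.14% and 14.7% of all genes. When the test itself required more than a 2-fold change, Smg6 passed only between E11.5 and E16.5.

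Divided by the length of the longest coding isoform, Smg5 had the highest level of the 9 at each stage, at 40.7 ± 1.59, 27.4 ± 1.75 and 33.2 ± 0.73 CPM per kb (SD, n = 3). Smg6 was the sixth at E11.5 with 12.2 ± 0.984 CPM per kb and the second at E14.5 and E16.5 with 25.9 ± 2.74 and 28.1 ± 0.304 CPM per kb. Its range overlapped with that of Smg5 at E14.5 and lay below it at E16.5. Upf1 followed Smg5 at E11.5 with 20.9 ± 3.35 CPM per kb, overlapping with Smg9. Smg9, Upf3a, Smg8 and Upf3b lay between 10.1 and 17.4 CPM per kb at all stages and mostly overlapped with their neighbours. Upf2 (7.44 to 8.82) and Smg1 (4.77 to 7.62) were at the bottom, with overlapping ranges only at E16.5. Divided by the length of all annotated exons, Smg6 ranked above Smg5 at E14.5 and Upf3a fell to the last 2 ranks.

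The other genes of the pathway were read from the same fit. Of 7 further NMD factors, none was called between E11.5 and E14.5 by edgeR or DESeq2, and 0 passed an unadjusted threshold of 0.05 in either. At E16.5, 4 of the 7 were lower than at E14.5 and 5 of the 7 lower than at E11.5, and none was higher. Pnrc2, which links UPF1 to decapping, fell by 0.55 and by 0.69 on the log2 scale (edgeR adjusted p = 2.33e-05 and 1.18e-06). Ruvbl1, an ATPase that acts on the kinase family of SMG1, fell by 0.42 after E14.5 (edgeR adjusted p = 0.00212), and Nbas fell by 0.44 between the outer stages (edgeR adjusted p = 0.000634).

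Among 7 genes of the exon junction complex, 1 rose and 2 fell from E11.5 to E14.5, and 4 fell from E14.5 to E16.5. Magohb rose by 0.33 and Eif4a3, the helicase that anchors the complex, fell by 0.24 on the log2 scale at the first step (edgeR adjusted p = 0.00757 and 0.00966). Magoh fell by 0.61 at the second step (edgeR adjusted p = 2.51e-06). Of 3 release factor genes, 1 fell in each comparison, Gspt2 by 0.26 at the first step and Etf1, which recognises stop codons, by 0.50 at the second (edgeR adjusted p = 0.0307 and 3.49e-05).

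Of 10 classical NMD target mRNAs, 7 could be tested, and 4 rose and 1 fell from E11.5 to E14.5. Ddit3, a stress-response transcription factor, rose by 0.88 and Gadd45a, a growth-arrest gene, fell by 0.80 on the log2 scale (edgeR adjusted p = 1.80e-05 and 0.00389). From E14.5 to E16.5 none rose and 2 fell, Gadd45a by 1.01 and Atf4 by 1.01 (edgeR adjusted p = 0.000873 and 8.98e-08). These mRNAs are also controlled by stress and growth signals, so their levels are not a reading of NMD activity alone.

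Half-lives were obtained for all 9 members at all 3 stages by fitting an exponential decay to the conversion rates of each replicate. The NMD factor mRNAs were neither uniformly short-lived nor uniformly long-lived. Over the 9505 transcripts kept at all stages the median half-life was 4.31 ± 0.445, 4.52 ± 0.195 and 3.37 ± 0.0731 h in the 3 stages in order (SD, n = 3). Of the 9 members, 6, 3 and 3 had a mean half-life below the median of their stage. Rates were scaled to their 0 h value with no background removed, and the whole-library rate at 0 h was higher at E16.5 (1.86%) than at E11.5 (1.18%) and E14.5 (1.10%), while at 12 h it was 0.271%, 0.259% and 0.248%. Stages were therefore compared on half-lives scaled within each replicate, with unscaled hours as an alternative.

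**Figure D2:**
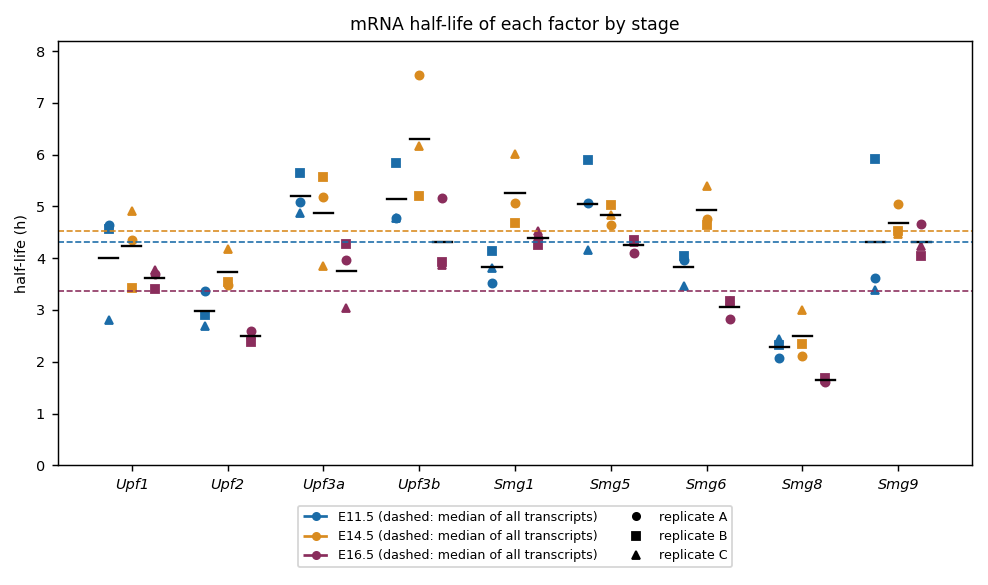
Half-life in hours (vertical axis from 0) of each factor's mRNA by stage, with 1 symbol per replicate, a black line at the mean and dashed lines at the medians of 9505 transcripts. Smg8 is lowest at each stage, with means of 2.28, 2.49 and 1.65 h.

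Smg8, a subunit of the SMG1 complex, had the shortest half-life of the 9 at each stage. Its replicates measured, in hours, 2.07, 2.33 and 2.43 (E11.5), 2.12, 2.35 and 2.997 (E14.5), and 1.60, 1.69 and 1.64 (E16.5). No replicate of Smg8 reached a replicate of the next member, Upf2, at any stage. Among all 9505 transcripts, Smg8 stood at percentile 4.86 ± 3.90, 6.15 ± 4.398 and 3.30 ± 0.5 (SD, n = 3). The label left after 2 h shows this without a fit. In Smg8 it was 47.6 ± 6.71%, 52.1 ± 7.92% and 40.5 ± 0.97% of the 0 h rate, against means of 67.7% or more in every other member. The position of Smg8 depended on the fit. A straight line through the logarithm of the rates, which weighs late times more, gave Smg8 4.84, 4.56 and 3.73 h, and then Upf3b at E11.5 and Upf2 at the later stages were shortest.

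**Figure D3:**
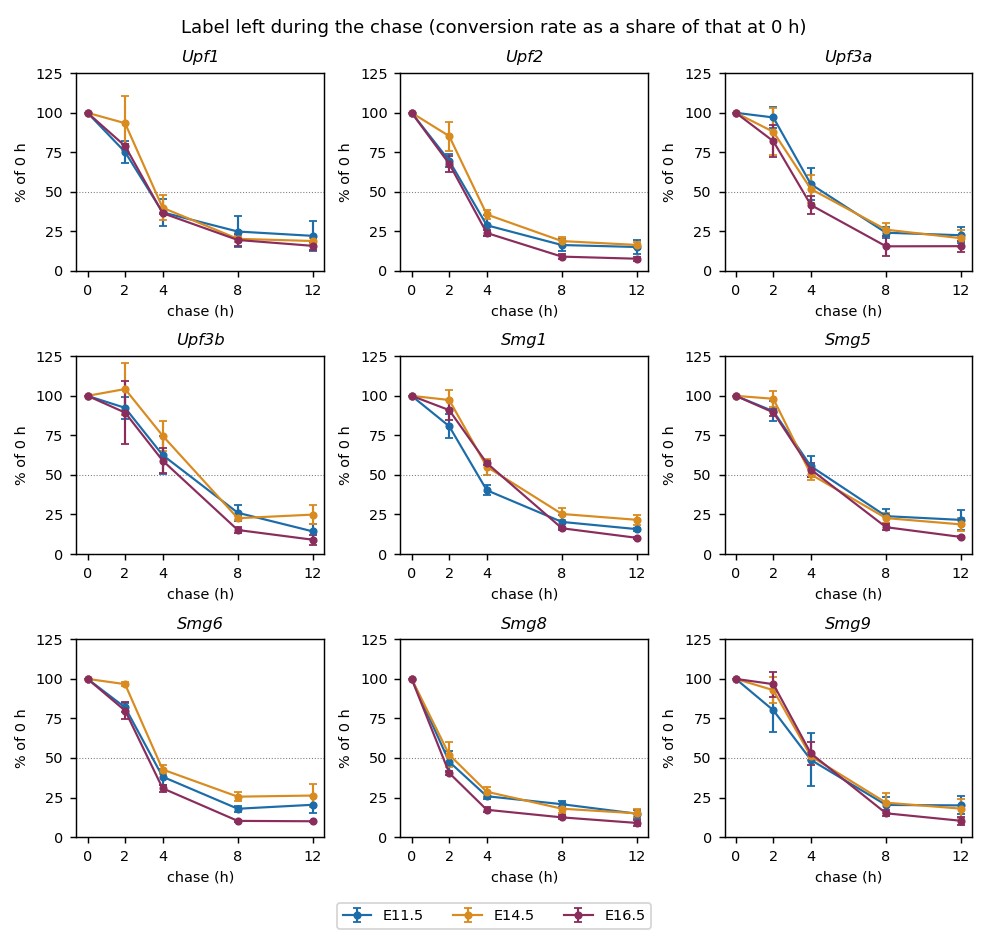
Conversion rate of each factor during the chase as a percentage of its rate at 0 h (vertical axis from 0) against hours of chase, mean ± SD of 3 replicates per stage. Smg8 falls to 40.5 to 52.1% within 2 h, whereas the other 8 factors keep 67.7% or more.

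Upf2 was second from the bottom at all stages, with 2.99 ± 0.343, 3.74 ± 0.388 and 2.50 ± 0.105 h (SD, n = 3), overlapping with Upf1 at E14.5. Smg6 had 3.82 ± 0.314, 4.93 ± 0.402 and 3.06 ± 0.203 h and was the third at E11.5 and E16.5 and the seventh at E14.5. Upf1 had 4.01 ± 1.04, 4.23 ± 0.751 and 3.62 ± 0.185 h, and its replicates at E11.5 ran from 2.81 to 4.65 h. Most of the other members overlapped with their neighbours. Smg5 had 5.04 ± 0.877, 4.83 ± 0.187 and 4.25 ± 0.138 h, and Upf3a 5.21 ± 0.398, 4.87 ± 0.895 and 3.76 ± 0.635 h. Upf3b, with the longest mean of any stage, had 5.13 ± 0.609, 6.30 ± 1.17 and 4.32 ± 0.724 h. Smg9 had 4.31 ± 1.40, 4.67 ± 0.32 and 4.32 ± 0.313 h, with replicates from 3.39 to 5.91 h at E11.5.

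To compare stages, half-lives were z-score normalized within each replicate over all 9505 transcripts. Over the 3 stages none of the 9 members was called by limma's F-test, while 3.15% of all transcripts were. At an unadjusted threshold of 0.05, 3 members passed, Smg1 (limma adjusted p = 0.0507), Smg6 (limma adjusted p = 0.0857) and Smg5 (limma adjusted p = 0.221). Smg1 was just outside the threshold and passed it in 6 of the alternative analyses. In the contrast of E16.5 with E11.5, 1 member was called, Smg1, while 2.99% of transcripts were called longer and 1.71% shorter. Smg1 measured, in hours, 3.52, 4.13 and 3.81 (E11.5), 5.07, 4.68 and 6.02 (E14.5), and 4.38, 4.25 and 4.52 (E16.5). Relative to its transcriptome it rose by 0.82 z-score units (SE 0.149, limma adjusted p = 0.0253), from percentile 36.9 ± 11.2 to percentile 73.6 ± 2.48. The call was lost, with limma adjusted p between 0.061 and 0.0937, without E11.5 replicate A or B or without any of the 3 replicates of E16.5, and in unscaled hours (limma adjusted p = 0.267) and with the straight-line fit (limma adjusted p = 0.712).

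The half-lives of the feedback members and of the other members overlapped at each stage. The median half-life of the 6 feedback members was 4.10, 4.84 and 3.79 h and that of the 3 other members 4.22, 4.47 and 3.69 h. The difference, feedback minus other, was 0.692, -1.30 and 0.249 h in replicates A, B and C of E11.5. In E14.5 it was -0.34, 0.142 and 1.29 h, and in E16.5 -0.0728, -0.378 and 0.773 h. Both signs occurred at each stage, and the means of -0.119 ± 1.05, 0.364 ± 0.837 and 0.107 ± 0.596 h (SD, n = 3) were smaller than their spread. No test was made, because members are not replicates. With Upf1, Smg1 and Smg5 alone as feedback members, set against the remaining 6, the means were 0.325, 0.143 and 0.864 h. This narrower difference was positive in every replicate of E16.5 and took both signs at E11.5 and at E14.5. By comparison, the 3 classical NMD targets with a half-life had medians of 2.71, 3.03 and 2.34 h, the 6 further NMD factors 4.34, 4.84 and 3.82 h, and the 7 exon junction complex genes 4.52, 4.77 and 3.51 h.

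Annotated features linked to NMD were set beside these values. In GRCm38 (GENCODE), an isoform annotated as an NMD substrate was listed once each for Smg1, Smg5 and Smg6 and for none of the other 6 members, while it was listed for 30.5% of 8815 genes with a half-life. An upstream ATG was present in the main isoform of Upf2, Smg1, Smg5 and Smg9 and in 51.5% of these genes. The 3′ UTR of Smg1, at 4233 bases, was longer than that of 92.6% of transcripts, and that of Smg8, at 221 bases, longer than that of 11.0%. Those of the other members were between 400 bases in Smg9 and 1498 bases in Smg6, around a median of 1186 bases. Smg6 shares 126 exon bases with Srr on the opposite strand, or 1.49% of its exon length, and Upf1 shares 68 bases with Cers1. Srr was at 24.9 to 44.5 CPM and Cers1 at 3.61 to 10.4 CPM, and whether reads were counted by strand was not given in the sources used here.

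The conversion rate at 0 h depends on how much of an mRNA pool was made during labeling and on how much 4sU the new RNA took up. The 20 h of labeling exceeded the mean half-life of every member (1.65 to 6.30 h), so most of each pool would be new. The uptake of 4sU was not measured apart. The rate was compared relative to the median of its library. Of the 9 members, 1 was called over the 3 stages by limma's F-test, against 17.3% of 12522 genes. This member was Smg6, with conversion rates of 1.12, 1.09 and 1.51% at E11.5, 1.01, 1.06 and 0.908% at E14.5, and 2.10, 2.08 and 2.16% at E16.5. Relative to the library median its log2 rate was 0.06 ± 0.0351, -0.18 ± 0.0262 and 0.20 ± 0.0445 (SD, n = 3), with no overlap between stages (limma adjusted p = 0.00412). Between E11.5 and E16.5 alone no member was called by limma, and 2 members, Smg6 and Smg9, passed an unadjusted threshold of 0.05 (limma adjusted p = 0.102 and 0.12). In that contrast 6.77% of genes were called higher and 10.3% lower. All 8 progenitor markers were among the lower and all 8 neuron markers among the higher, and the part of this in the members' values was not tested.

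**Figure D4:**
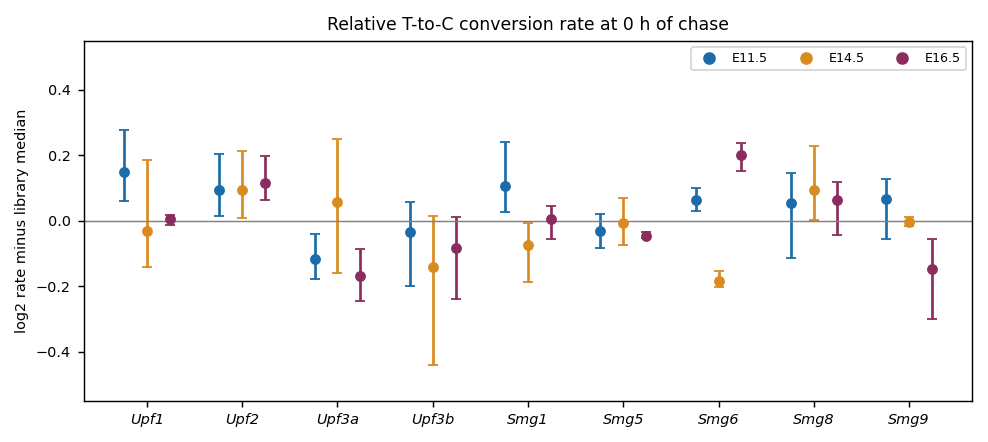
Conversion rate at 0 h of chase as log2 rate minus the median of its library, by factor and stage, with points at the mean of 3 replicates and bars from the lowest to the highest. The bars of Smg6 do not overlap between stages, around means of 0.06, -0.18 and 0.20.

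While the label decays, the level of a steady mRNA should hold, and this was checked by comparing 12 h with 0 h of chase within each stage. At 12 h, Smg6 and Smg9 were lower, and most other members were near their starting level. Times between were not tested, and levels did not all hold there. At E14.5, mean CPM at 0, 4 and 12 h was 105, 154 and 111 for Smg1 and 58.7, 77.7 and 62.6 for Upf1. It was 43.2, 55.8 and 47.1 for Upf2 and 26.5, 34.7 and 27.2 for Upf3b. For Smg1 at E11.5 it was 74.1, 103 and 72.7. At E16.5 the mean CPM of Smg1 was 119, 130, 150 and 132 at 0, 4, 8 and 12 h. Some members of that stage, such as Upf1 (87.1 and 79.1 CPM), were lower at 4 h than at 0 h. The part of these shifts in the half-lives was not tested. At E11.5, 2 members were called, both lower, while 10.3% of genes were called higher and 8.18% lower by edgeR. At E14.5, 1 member was called, lower, beside 6.29% of genes higher and 5.63% lower. At E16.5, 5 members were called, 4 lower and 1 higher, beside 13.1% of genes higher and 11.4% lower.

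Smg6 fell at all 3 stages. At 12 h it was at 56.8, 54.0 and 51.4 CPM at E11.5, 115, 123 and 122 CPM at E14.5, and 116, 113 and 122 CPM at E16.5, each below every 0 h library of its stage. The log2 change was -0.23 (SE 0.0721, edgeR adjusted p = 0.0491), -0.33 (SE 0.0825, edgeR adjusted p = 0.0253) and -0.47 (SE 0.0406, edgeR adjusted p = 9.92e-05). Between 0 and 12 h of chase at E11.5 the median gene shifted by -0.20 in log2 CPM and by -0.01 after the TMM scaling that the tests used. The transcript Gm42418 took 2.97 to 6.76% of reads there at 12 h against 0.386 to 0.948% at 0 h, and its part in the shift was not tested.

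Smg9 was at 28.8, 24.8 and 21.1 CPM at 12 h in E11.5, 26.8, 21.4 and 21.8 CPM in E14.5, and 28.3, 27.5 and 26.0 CPM in E16.5. These lay below the 0 h values except at E14.5, where the lowest 0 h library, at 25.2 CPM, was inside the range. The log2 change was -0.46 (edgeR adjusted p = 0.0117), -0.43 (edgeR adjusted p = 0.0643) and -0.45 (edgeR adjusted p = 0.000909). With the pool of cells as a replicate block Smg9 was called at E14.5 too (edgeR adjusted p = 0.00733), in a fit that called 9.97% of genes lower. At E16.5, Upf1 (log2 -0.21, edgeR adjusted p = 0.0186) and Smg5 (log2 -0.15, edgeR adjusted p = 0.0274) were lower and Smg1 (log2 0.19, edgeR adjusted p = 0.0295) was higher. These tests ran on counts of covered T positions, and with recovered reads in their place Smg1 was no longer called (log2 0.16, edgeR adjusted p = 0.0532).

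Leaving out a single replicate ended the call of Smg6 at E11.5 (A, B or C) and E14.5 (B or C), of Smg9 at E11.5 (A or B), and at E16.5 of Upf1 (A or C), Smg1 (A or B) and Smg5 (A, B or C), but not of Smg6 or Smg9 at E16.5. These fits did not pair the libraries of a pool. With all replicates and the pool as a block, Smg6 was called at each stage (edgeR adjusted p = 0.00486, 0.00256 and 1.84e-08). That fit also called Smg9 at E11.5 (edgeR adjusted p = 8.56e-05). At E16.5 it called Upf1, Smg1 and Smg5 (edgeR adjusted p = 0.000982, 0.000881 and 0.00336). The block fit was not repeated without a replicate. Its share of all genes was taken only at E14.5, where 9.97% were called lower against 5.63% without the block. The block calls at E11.5 and E16.5 therefore cannot be set against such a share. Whether the change over the chase differed between stages was tested by an interaction chosen after seeing the data. It called none of the 9 members (edgeR), with the lowest unadjusted p at 0.0616 for Smg6 (edgeR adjusted p = 0.26), while 7.55% of genes were called.

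**Figure D5:**
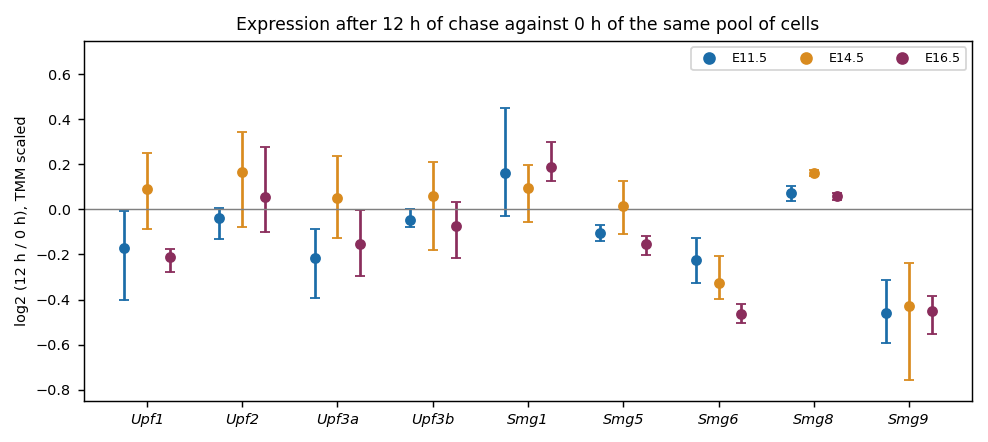
Log2 ratio of the level at 12 h to that at 0 h of chase in cells of the same pool, after TMM scaling, by factor and stage, with points at the mean of 3 replicates and bars from the lowest to the highest. All bars of Smg6 and Smg9 are below 0, with Smg6 means falling from about -0.23 at E11.5 to -0.47 at E16.5.

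Further NMD factors and NMD targets were also compared over the chase. At E16.5, 1 of the 7 further factors rose, Nbas by 0.33 on the log2 scale (edgeR adjusted p = 0.002), and 3 fell. At E11.5, 1 of the 7 fell, Secisbp2 by 0.36 (edgeR adjusted p = 0.0381), and 3 of the 7 were called with the pool as a replicate block. At E14.5 none of the 7 was called by edgeR or DESeq2, with 0 and 1 at an unadjusted threshold of 0.05. Pym1, which takes the exon junction complex apart, fell at each stage, by 0.33, 0.47 and 0.34 (edgeR adjusted p = 0.019, 0.0061 and 0.00241). Of the 7 targets tested, 1, 1 and 4 fell and none rose, the noncoding host gene Snhg15 by 1.13 and Ddit3 by 0.66 at E16.5 (edgeR adjusted p = 0.00727 and 0.000969). Snhg15 was near the floor, at 1.45 to 2.05 CPM at 0 h of E16.5, and its change had an SE of 0.238.

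Across the 45 libraries the members formed no single group. The log2 CPM of Upf1 correlated with that of Smg5 (Pearson r = 0.83) and that of Smg9 with Smg5 (r = 0.745) and Upf1 (r = 0.629). Smg8 also followed Smg5 (r = 0.652), and Upf2 followed Upf3b (r = 0.663). Smg1 correlated with Upf3b (r = 0.702) and Smg6 (r = 0.693), whereas Smg5 and Smg6 ran against each other (r = -0.54). These values describe libraries that share stages, pools and depth, and no test was applied. Among the genes most like the mean profile of the 9 members, out of 14291 genes, were Rbbp6 (r = 0.882), Ice1 (r = 0.853), Rnf40 (r = 0.841) and Zfp318 (r = 0.833). That profile averages members that ran against each other. At 0 h it was narrow, from -0.0997 at E14.5 to 0.12 at E16.5 in centred log2 CPM. Likeness to it was not tested.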

How the data were processed

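RNA of 45 SLAM-seq libraries was analysed. The authors mapped reads to mm10 with SlamDunk, added up the exon values of a gene and deposited, per gene and library, raw counts of covered T positions, the conversion rate as a fraction of these, and CPM (reads scaled to the library total), from which whole reads were recovered for 100% of values (tolerance 0.01 reads). Deposited mean coverage signal and mean CPM columns were not used. The authors' deposited half-lives and R2 score served only to check the refit, and 109733 fits were compared. Covered T positions are not independent, since a read covers several.

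Conversion rates divided by the 0 h rate were refitted to an exponential in each replicate, and transcripts were kept with over 500 covered Ts at 5 times, a half-life between 0 and 24 h and R2 above 0.6 in all replicates. Counts were tested with edgeR 4.0.16 (TMM, over 10 counts in all libraries, 9 libraries at 0 h in 1 fit, 6 libraries per chase comparison), with DESeq2 1.42.0 as an alternative. Half-lives and log2 conversion rates were tested with limma 3.58.1 (R 4.3.3). The threshold was an adjusted p of 0.05. Tests were checked on simulated data. Python 3.11.15 was used for the rest. The regression tool of the study was not used here.

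Members and gene lists were chosen with earlier results of these data known. Named were all members, at most 2 called genes per list and comparison with the largest change, and the 5 genes most like the members' mean profile among those with a mean CPM of at least 1 and reads in every library, of which some are not reported here. Positions are from GENCODE release 21 for GRCm38, the build of mm10. Replicate letters mark different embryos at each stage and do not pair stages. Within a stage the sources state that cells of 1 pool were divided over the chase times, and deviations of same-lettered 0 h and 12 h libraries correlated at 0.0452 to 0.608, with the own letter best in 8 of 9. P-values measure the spread between pools. In the chase fits with the pool as a block, they measure how far the change from 0 to 12 h varied from pool to pool.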

Additional observations from a re-analysis of the deposited data

How the results depend on the processing

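The counts of members called at 0 h stayed within 1.5 times their value under all alternatives but 1. Requiring more than a 2-fold change in the test gave 0, 0 and 1 members for E14.5 against E11.5, E16.5 against E14.5 and E16.5 against E11.5. Over the 3 stages, where no member was called by relative half-life, 2 were called with R2 above 0.8 (Smg1 and Smg6) and 2 in unscaled hours (Upf2 and Smg6). There 1 was called, Smg1, with over 2000 covered Ts, without 12 h, in median-centred log2 hours or after background subtraction, and 0 to 1 without 1 replicate. Between E16.5 and E11.5 none was called in unscaled hours or with the straight-line fit, and 0 to 1 without 1 replicate. Over the chase, E11.5 gave 1 member without a count filter and 0 to 1 without 1 replicate. E14.5 gave 2 with DESeq2, without a filter and with the replicate block, and 0 to 1 without 1 replicate, and E16.5 gave 2 to 3 without 1 replicate. The replicate block changed 1 further call, Smg9 between E14.5 and E16.5 (edgeR adjusted p = 0.0381), where letters do not pair embryos.

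The feedback difference with the narrower group was 0.325 h (E11.5) and 0.864 h (E16.5). With the full group of feedback members, the difference was -0.516 h (E16.5) with the straight-line fit. Without 1 replicate, the difference of the full group ran from -0.525 to 0.47 h, from -0.0986 to 0.716 h and from -0.225 to 0.35 h in the 3 stages. Directions turned in values that had not passed. Smg8 (E16.5 against E14.5, no filter) was at -0.018 and Upf3a (E16.5 against E11.5, recovered reads) at -0.018, and Smg5 over the chase at E14.5 (recovered reads) at -0.0021. The half-life difference E16.5 minus E11.5 in unscaled hours was -0.39 for Upf1, -0.49 for Upf2, -0.81 for Upf3b, -0.79 for Smg5 and -0.76 for Smg6. The next differences are in z-score units and not in hours. With the straight-line fit they were -0.066 for Upf2, 0.34 for Upf3a, -0.15 for Smg5, -0.19 for Smg6, 0.11 for Smg8 and -0.18 for Smg9. After background subtraction the z-score difference was 0.0071 for Smg8. The causes were not tested.

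Without 1 replicate, log2 or z-score differences that changed sign ran as follows. In expression at 0 h, E14.5 against E11.5, -0.14 to 0.050 for Upf2 and -0.14 to 0.048 for Upf3a. In expression at 0 h, E16.5 against E14.5, -0.014 to 0.11 for Upf3a and -0.045 to 0.039 for Smg8. In expression at 0 h, E16.5 against E11.5, -0.11 to 0.090 for Upf3a and -0.021 to 0.085 for Smg9. In relative half-life, E16.5 against E11.5, -0.14 to 0.28 for Upf3b and -0.074 to 0.071 for Smg8. In relative conversion rate at 0 h, E16.5 against E11.5, -0.017 to 0.078 for Upf2, -0.13 to 0.030 for Upf3b, -0.039 to 0.015 for Smg5 and -0.074 to 0.062 for Smg8. In level at 12 h against 0 h, E11.5, -0.050 to 0.0058 for Upf2. In level at 12 h against 0 h, E14.5, -0.044 to 0.14 for Upf3a, -0.021 to 0.17 for Upf3b and -0.040 to 0.077 for Smg5. In level at 12 h against 0 h, E16.5, -0.046 to 0.14 for Upf2.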
